A study of Mus musculus with 21 samples.

Results

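Binding of SRSF3 and SRSF7 was followed at 1294 clusters of crosslinked positions that were listed for both proteins in chromatin, nucleoplasm and cytoplasm. To find them, the positions of all 6 lists were joined on 1 chromosome and strand wherever the gap was at most 30 nt, and a cluster was kept when each of the 6 lists had at least 1 position in it. The mitochondrial genome was left out. Joining gave 211409 clusters, so the persistent ones made up 0.612% of them. Presence in every list is the rule that chose these clusters and is not a finding. The clusters were thus chosen by the presence of listed positions. Past that 1 position per list, the rule did not use how many cDNAs each list placed in a cluster or at which nucleotide. A cluster with many cDNAs still meets it more easily. The median over all lists was 190.5 cDNAs in the persistent clusters and 4 in all other clusters.

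The data come from fractionation iCLIP in the P19 line, mouse embryonal carcinoma cells that can be differentiated in culture. One set of samples expressed SRSF3-GFP and the other SRSF7-GFP. Crosslinking used 254 nm light at 100 mJ/cm2, followed by separation into chromatin, nucleoplasm and cytoplasm. The 6 groups were therefore SRSF3 chromatin, SRSF3 nucleoplasm, SRSF3 cytoplasm, SRSF7 chromatin, SRSF7 nucleoplasm and SRSF7 cytoplasm. Each SRSF3 group had 4 replicates and each SRSF7 group 3. The submitters pooled them, so each group is 1 list with no replicate spread, and no p-value is given. All groups carried a GFP fusion, and no sample without a tagged protein was analysed here.

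SR proteins bind RNA through an RNA recognition motif and carry a domain rich in arginine and serine. They take part in splicing in the nucleus. SRSF3 and SRSF7 also shuttle to the cytoplasm and act as adaptors for mRNA export. In iCLIP, RNA and protein in contact are joined by ultraviolet irradiation, and reverse transcription stops beside the joined nucleotide, so that each cDNA start marks a crosslink site. Crosslinking with fractionation is used to find on which RNAs a protein sits at the site of transcription, in the soluble nucleus and after export.

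The lists held between 248498 cDNAs (SRSF7 chromatin) and 1768665 cDNAs (SRSF3 chromatin), and a deeper list can place a weak position in a cluster more easily. The values are cDNAs in called peaks, not in whole libraries. The track names of the 3 SRSF7 lists carry a term for regions taken as one, while those of SRSF3 do not. The descriptions of the same SRSF7 tracks name regions taken separately, as those of SRSF3 do. Whether peak calling differed between the proteins was not tested. Levels below are cDNAs per 1000000 listed cDNAs of a list, written CPM. Values given in threes for a protein stand for chromatin, nucleoplasm and cytoplasm, in that order. All intervals are 95% exact binomial ones and cover counting error only. In pooled cells, fewer cells of a type and less RNA per cell cannot be told apart, and no RNA level per fraction was measured, so a lower share does not separate less RNA from less protein on each RNA. No genome or annotation of build mm9, the build of the lists, was used here. Clusters are therefore given by 1-based mm9 position and strand, without gene names or exon and intron annotation.

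The limit of the rule ran through a continuous range of clusters. Just outside it lay 1471 clusters listed in 5 of the 6 lists, with a median width of 54 nt and a median of 61 cDNAs over all lists. The missing list was SRSF7 chromatin for 577 of them and SRSF3 cytoplasm for 430, the lists with the lowest totals. Just inside it lay 72 persistent clusters with a single cDNA in some list, with a median width of 91 nt and 120 cDNAs. The lowest of the 6 counts had a median of 6, was at least 10 in 435 clusters and at least 50 in 100. A large part of the persistent clusters thus rested on few cDNAs in at least 1 list.

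The persistent clusters took up a large part of every list except that of SRSF3 in chromatin. Of the SRSF3 cDNAs they held 26.9% (26.9 to 27.0) in chromatin, 53.3% (53.1 to 53.5) in nucleoplasm and 61.1% (60.9 to 61.2) in cytoplasm. For SRSF7 chromatin was the highest, with 61.0% (60.8 to 61.2), against 45.3% (45.1 to 45.5) in nucleoplasm and 46.7% (46.6 to 46.9) in cytoplasm. Their part of the listed positions was smaller, 6.0% in SRSF3 chromatin, 27.4% in SRSF3 nucleoplasm and 35.6% in SRSF3 cytoplasm, against 28.1%, 19.9% and 17.9% in the same fractions of SRSF7. Positions inside them were taller than those outside in each list. The mean was 9.12 cDNAs inside against 1.58 outside in SRSF3 chromatin, and 4.79 against 1.44 in SRSF7 nucleoplasm, the list with the smallest mean inside. The rule favours clusters with many cDNAs, so large shares and tall positions are tied to it and are given as a description. The highest locus of the lists, described below, is part of these shares. Without it and the mitochondrial genome the SRSF3 shares became 21.3%, 50.4% and 64.0%, and the SRSF7 shares 54.7%, 42.6% and 40.2%, which kept the order of fractions in SRSF3 and placed cytoplasm below nucleoplasm in SRSF7. The SRSF3 chromatin list was also the deepest, with 1768665 cDNAs against 367298 in SRSF7 cytoplasm, the next. The part of depth in its low share was not tested. With positions of at least 3 cDNAs every share was higher, and that of SRSF3 chromatin was still the lowest.

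**Figure D1:**
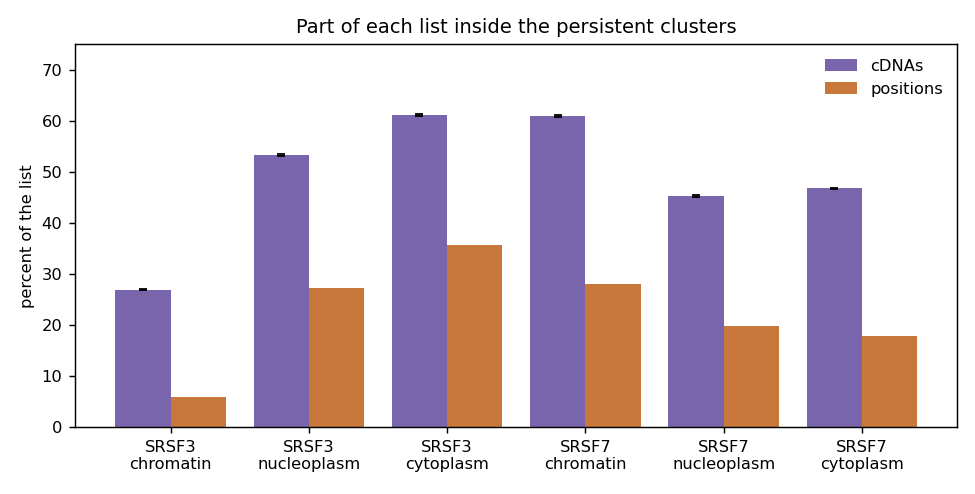
Percent of each list's cDNAs and of its listed positions (vertical axis) that lay in the 1294 persistent clusters, for the 6 lists (horizontal axis); error bars on the cDNA bars are 95% Clopper-Pearson intervals, counting error only. The SRSF3 chromatin bar, at 26.9% of cDNAs, is the lowest, and the SRSF3 cytoplasm and SRSF7 chromatin bars, at 61.1% and 61.0%, are the highest.

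Most persistent clusters were short. Their median width was 61 nt, with quartiles of 35 and 109 nt and a range from 1 to 4448 nt. Of the 1294, 291 spanned at most 30 nt and 151 more than 200 nt. All other clusters had a median of 12 nt, clusters in every SRSF3 list but not every SRSF7 list 44 nt (2122 clusters), and clusters in every SRSF7 list but not every SRSF3 list 60.5 nt (1808 clusters). Since a wider cluster has more nucleotides in which a list can place a position, width is tied to the rule and is given as a description. The strands were used nearly evenly, with 623 plus and 671 minus clusters, and 7 overlapped a cluster of the opposite strand. Chromosome 13 held the most, 115 of the 1294 (8.89%, against 4.69% of all clusters), and chromosome 19 held 53 (4.10%, against 2.44%).

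The lists often met at the very same nucleotide. A single position was listed in all 6 lists in 738 of the 1294 clusters (57.0%). There were 4999 such positions among 79575 distinct ones (6.28%), while 47.7% of the distinct positions were in 1 list only. They held between 44.5% (SRSF3 chromatin) and 66.5% (SRSF3 cytoplasm) of a list's cDNAs in persistent clusters, and 1284 of them lay in the highest locus. Clusters with such a position had a median of 2, and 1 cluster had 597. By the rule, none can lie in another nuclear cluster. The 832-nt cluster of that locus had 707, 709 and 707 listed positions with SRSF3 and 684, 623 and 710 with SRSF7, which leaves little room to differ. How often lists would meet through dense listing alone was not tested. Within SRSF3 alone, 85.2% of the persistent clusters had a nucleotide common to its 3 fractions, against 59.99% of clusters persistent for SRSF3 only. Within SRSF7 the values were 74.8% and 35.9%. The compared sets also differ in depth, with a median of 190.5 cDNAs over all lists in the persistent clusters, 34 in the SRSF3-only set and 41 in the SRSF7-only set, and the part of depth in these differences was not tested.

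The tallest position of a cluster, the nucleotide with the most cDNAs, was also often shared. Among clusters with at least 10 cDNAs in both lists compared, the tallest positions of the proteins coincided in 48.8% of 678 clusters in chromatin (45.0 to 52.7). In nucleoplasm they coincided in 42.3% of 830 (38.9 to 45.7), and in cytoplasm in 41.4% of 693 (37.7 to 45.2). They lay within 5 nt in 65.3%, 61.2% and 63.2%. Tied tallest positions were paired at their nearest. With the 5′-most of tied positions taken, the proteins differed in 387 of 678, 532 of 830 and 443 of 693 clusters, against 347, 479 and 406. Pairs of fractions of 1 protein gave values of the same order. For chromatin against cytoplasm, the tallest positions coincided in 48.5% of 769 clusters in SRSF3 (44.9 to 52.1) and 42.7% of 611 in SRSF7 (38.8 to 46.7). For chromatin against nucleoplasm the values were 49.5% of 965 in SRSF3 (46.3 to 52.7) and 43.7% of 627 in SRSF7 (39.8 to 47.7). For nucleoplasm against cytoplasm they were 49.3% of 750 (45.7 to 53.0) and 45.0% of 737 (41.4 to 48.7). Fractions of SRSF7 thus coincided about as often as the proteins did. Fractions of SRSF3 coincided about as often as the proteins in chromatin, and somewhat more often than the proteins in nucleoplasm and cytoplasm. Closeness went with width. Over the 9 pairs of lists, tallest positions lay within 5 nt in 91.7% to 95.7% of clusters up to 30 nt wide and in 56.0% to 62.9% of wider ones.

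**Figure D2:**
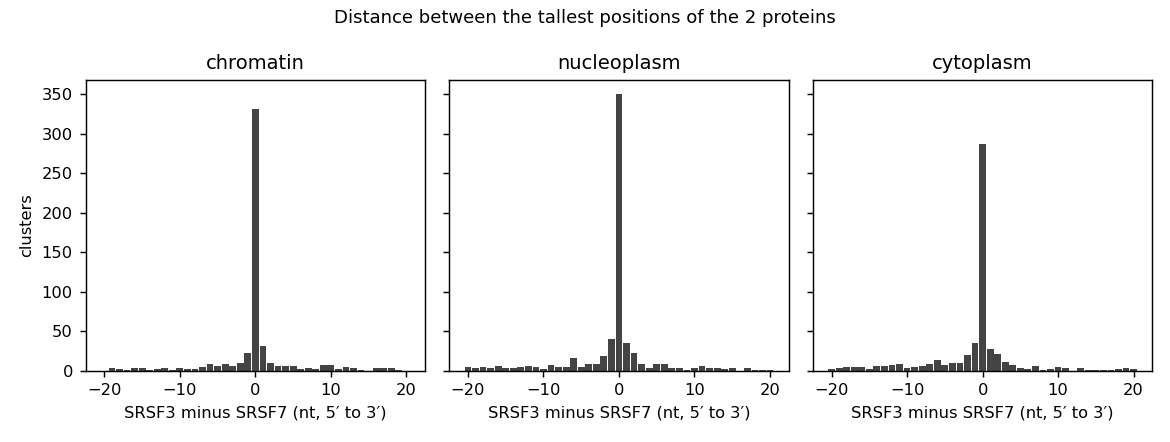
Number of persistent clusters (vertical axis) by the distance from the tallest SRSF7 position to the tallest SRSF3 position (horizontal axis, nt, positive when SRSF3 lies toward the 3′ end), in chromatin, nucleoplasm and cytoplasm, for distances up to 20 nt. The bar at 0 holds 331, 351 and 287 clusters and stands above all other distances drawn.

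Clusters that were listed in both lists of a pair without being persistent gave similar, lower or higher values, depending on the pair. In SRSF3 chromatin against cytoplasm 46.96% of 494 such clusters coincided (42.5 to 51.5), within the interval of the persistent ones. In SRSF7 nucleoplasm against cytoplasm the value was 24.9% of 676 (21.6 to 28.3), against 45.0% of 737 persistent clusters (41.4 to 48.7). Those 676 were wider, with a median of 118 nt against 74 nt, and shallower, with 43 cDNAs against 99. The part of width and depth in the gap was not tested. In SRSF7 chromatin against cytoplasm 48.8% of 291 coincided (42.9 to 54.7), against 42.7% of 611 persistent clusters (38.8 to 46.7). In SRSF3 nucleoplasm against cytoplasm the persistent clusters were also the lower, with 55.5% of 629 others (51.5 to 59.4) against 49.3% of 750 (45.7 to 53.0). Of the 435 persistent clusters with at least 10 cDNAs in every list, 54 had all 6 tallest positions at 1 nucleotide and 136 had them within 5 nt, and the median window that held all 6 was 18 nt. Where the tallest positions of the proteins differed, SRSF3 lay on the 5′ side in 298 of 479 clusters in nucleoplasm (62.2%) and 253 of 406 in cytoplasm (62.3%), but in 171 of 347 in chromatin (49.3%). Leans of similar size occurred between fractions of 1 protein. In SRSF7 the chromatin position lay on the 5′ side of the cytoplasm position in 231 of 350 clusters (66.0%) and of the nucleoplasm position in 59.2%. In SRSF3 the nucleoplasm position lay on the 5′ side of the cytoplasm position in 58.2%. This count was made after the values were seen, and the clusters share loci.

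A single locus with 8 persistent clusters had more cDNAs in them, in each list, than any other locus. It spans chr17:39979938-39985047 on the plus strand of mm9. Its persistent clusters held 7.67%, 16.3% and 21.8% of the listed cDNAs with SRSF3 and 17.2%, 5.94% and 17.1% with SRSF7. SRSF3 placed the smallest part of its cDNAs there in chromatin, and SRSF7 in nucleoplasm. Inside the locus, the first 3 clusters and the last one split by chromatin against the other fractions rather than by protein. The 832-nt cluster at its 3′ end, chr17:39984216-39985047, had 35424, 33102 and 35370 cDNAs with SRSF3 and 10355, 10480 and 37514 with SRSF7. As a share of the 8 clusters this was 26.1% in SRSF3 chromatin and 24.2% in SRSF7 chromatin, against 64.5%, 63.2%, 64.1% and 59.7% in SRSF3 nucleoplasm, SRSF3 cytoplasm, SRSF7 nucleoplasm and SRSF7 cytoplasm. Both chromatin lists lay well below the other 4.

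The 5′ end of this locus ran the other way. The 1195-nt cluster chr17:39979938-39981132 had 57255, 6840 and 4887 cDNAs with SRSF3 and 19389, 3326 and 7461 with SRSF7. This was 42.2%, 13.3% and 8.73% of the cDNAs of the 8 clusters with SRSF3 and 45.3%, 20.3% and 11.9% with SRSF7. The next one, the 414-nt cluster chr17:39981294-39981707, had 19527, 11 and 177 cDNAs with SRSF3 and 7622, 195 and 630 with SRSF7. It made up 14.4% and 17.8% of the cDNAs of the 8 clusters in the 2 chromatin lists and between 0.0214% and 1.19% in the other 4. The 172-nt cluster chr17:39982850-39983021 had 8003, 603 and 64 cDNAs with SRSF3 and 2552, 144 and 511 with SRSF7. Both of these middle clusters were thus high in chromatin for both proteins, and the chromatin lists overlapped no other list in their share of the 8 clusters. These shares use only cDNAs of the 8 clusters and so do not depend on the list totals. All positions of the 414-nt cluster that were tallest in a list fell within 16 nt, while those of the 1195-nt cluster needed a window of 1052 nt. The breakdown of the locus was made after the values were seen.

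**Figure D3:**
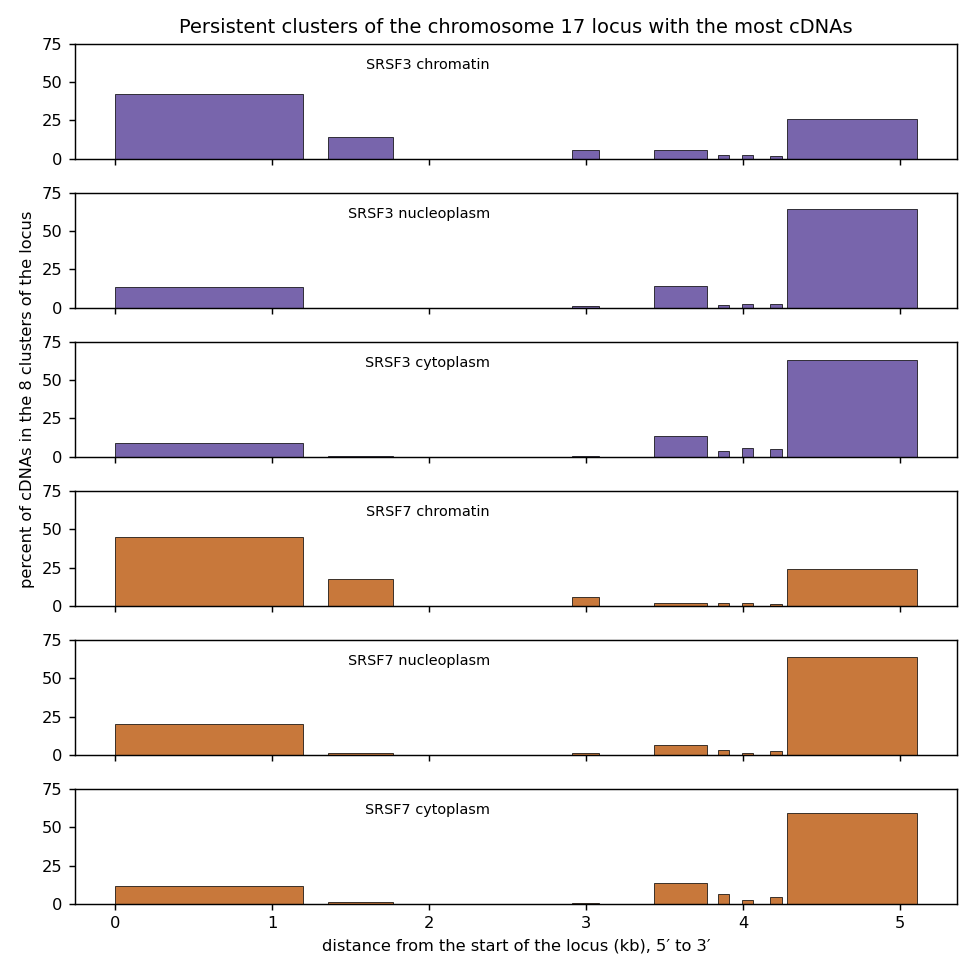
Percent of the cDNAs in the 8 persistent clusters of the chromosome 17 locus (vertical axis) that lay in each cluster, drawn at its distance from the start of the locus (horizontal axis, kb, 5′ to 3′) with its width to scale, 1 panel per list. In both chromatin panels the first cluster is the highest, at 42.2% and 45.3%, and in the other 4 panels the last cluster holds between 59.7% and 64.5%.

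Of the 10 clusters whose lowest level over the lists was highest, 4 lay in that locus and 6 elsewhere. The 454-nt cluster chr11:108872978-108873431 on the minus strand had 15931, 4777 and 6073 cDNAs with SRSF3 and 4083, 1819 and 9649 with SRSF7. Its levels were 9007, 15141 and 23622 CPM with SRSF3 and 16431, 6614 and 26270.2 with SRSF7. It was highest in both cytoplasm lists and lowest in SRSF7 nucleoplasm, with a log2 ratio of SRSF3 to SRSF7 in nucleoplasm of 1.19 (1.12 to 1.27). The 359-nt cluster chr5:147072566-147072924 on the plus strand had 10267, 2026 and 3195 cDNAs with SRSF3 and 2545, 812 and 5618 with SRSF7. The 220-nt cluster chr3:5860589-5860808, also on the plus strand, had 6146, 1762 and 2628 cDNAs with SRSF3 and 1576, 594 and 4230 with SRSF7. These 3 clusters on different chromosomes kept nearly fixed proportions. The count of the chromosome 5 cluster was between 0.424 and 0.644 times that of the chromosome 11 cluster in the 6 lists, and that of the chromosome 3 cluster between 0.327 and 0.438 times. For the remaining 3 clusters the same ratio to the chromosome 11 cluster moved 7.80-fold to 12.5-fold between lists. Whether reads of near-identical sequence are split among the 3 was not tested, since no mm9 genome was used here.

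The 126-nt cluster chr9:78023133-78023258 on the minus strand differed most between the fractions of SRSF3 among these. Its levels were 1631, 20732 and 18919.5 CPM with SRSF3 and 7421, 14984 and 7866 with SRSF7. SRSF3 chromatin was the lowest list and SRSF3 nucleoplasm the highest. The log2 ratio of chromatin to cytoplasm was -3.54 (-3.60 to -3.47) for SRSF3 and -0.084 (-0.17 to 0.00077) for SRSF7. All 6 tallest positions lay within 18 nt.

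Even binding across all 6 lists was uncommon when levels were set against the list totals. Among the 100 clusters with at least 50 cDNAs in every list, the highest level was between 2.25 and 66.5 times the lowest, with a median of 6.84. In 14 it was at most 4 times the lowest, in 18 over 16 times, and in 0 at most 2 times. The most even on this scale were 2 neighbours on the minus strand of chromosome 7. The 2729-nt cluster chr7:67120963-67123691 had levels of 2835, 3033 and 2128 CPM with SRSF3 and 2233, 4782 and 3787 with SRSF7. The 2726-nt cluster chr7:67118174-67120899 had 4131, 5020.4 and 3131 CPM with SRSF3 and 2969.8, 6836 and 5995 with SRSF7. Both were highest in SRSF7 nucleoplasm, and the tallest positions of the 6 lists needed windows of 2461 and 1817 nt to be held together. Their evenness depended on the total. Set against the list totals, the first was beyond 2-fold in 0 of the 9 pairs of lists and the second in 1, but with the persistent clusters as the total each was in 5. Other even clusters were narrow. The 34-nt cluster chr4:116875198-116875231 on the plus strand had 472, 609 and 821 CPM with SRSF3 and 1111, 894 and 523 with SRSF7, with all 6 tallest positions within 4 nt. The 37-nt cluster chr1:194571831-194571867 on the plus strand had 630.4, 662 and 922 CPM with SRSF3 and 1698, 1084 and 579.9 with SRSF7, with all 6 within 3 nt. In these last 2 SRSF7 chromatin was the highest list. Neither was beyond 2-fold in any pair with the persistent clusters as the total, so on that scale they were more even than the chromosome 7 clusters by these calls. Of the 279 clusters that could be compared in all 9 pairs of lists, 8 lay beyond 2-fold in no pair against the list totals.

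**Figure D4:**
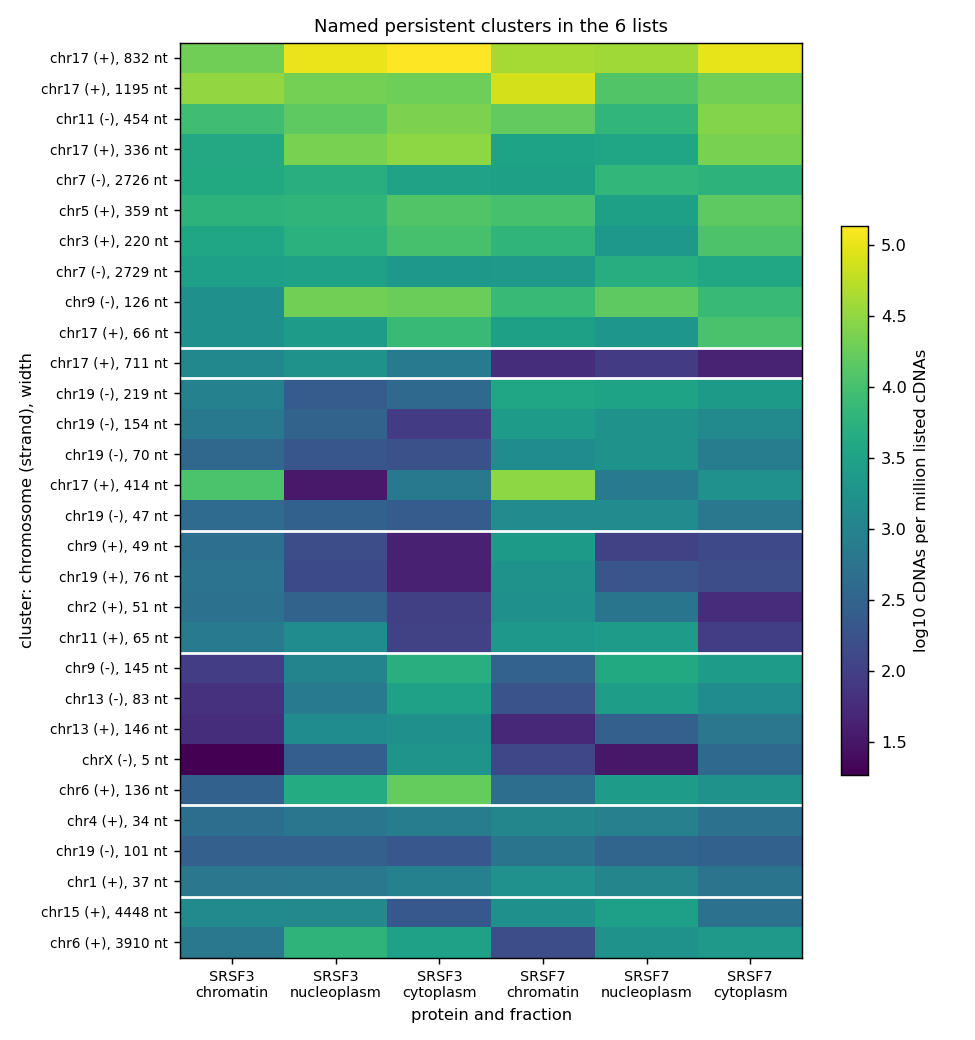
Level of 30 named persistent clusters (rows, by chromosome, strand and width) in the 6 lists (columns), as log10 of the level in CPM, with white lines between the groups of the naming rule. From top to bottom the first groups are highest lowest level, higher in SRSF3 and higher in SRSF7. Then come higher in chromatin than in cytoplasm, higher in cytoplasm than in chromatin, most even and widest. Each cluster is drawn once, in the first group that names it. The 414-nt chromosome 17 cluster runs from 34.9 CPM in SRSF3 nucleoplasm to 30672 in SRSF7 chromatin.

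The widest clusters held long stretches of listed positions. The 4448-nt cluster chr15:28573406-28577853 on the plus strand had 2322, 391 and 56 cDNAs with SRSF3 and 410, 774 and 189 with SRSF7, or 1313, 1239 and 218 CPM with SRSF3 and 1649.9, 2814 and 515 with SRSF7. It was low in cytoplasm for both proteins. The 3910-nt cluster chr6:4706400-4710309 on the plus strand had 1170, 1936 and 777 cDNAs with SRSF3 and 38, 477 and 856 with SRSF7, or 662, 6136 and 3022 CPM with SRSF3 and 153, 1734 and 2331 with SRSF7, and was lowest in chromatin for both. Its log2 ratio of chromatin to cytoplasm in SRSF7 was -3.93 (-4.44 to -3.46), the lowest called among the persistent clusters. The third was the 2729-nt cluster on chromosome 7.

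Most persistent clusters were at their highest level in nucleoplasm or cytoplasm for SRSF3 and most often in nucleoplasm for SRSF7. For SRSF3, 180 were highest in chromatin, 597 in nucleoplasm and 517 in cytoplasm. For SRSF7 these numbers were 331, 621 and 342, and 716 clusters had the same highest fraction with both proteins. Among the 435 clusters with at least 10 cDNAs in every list, SRSF3 gave 75, 156 and 204 and SRSF7 gave 145, 175 and 115, with 242 alike. These counts follow the list totals and carry no test.

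The 1294 clusters fell into 906 loci, where a locus joins positions at gaps of up to 10000 nt. Of these loci 694 held 1 persistent cluster and 84 held at least 3. Among the 694, 290 were made of 1 persistent cluster and nothing else, with a median width of 26 nt. The locus with the most was chr19:5794731-5803434 on the minus strand, with 17 persistent among 42 clusters. The 17 held 1.77%, 0.804% and 0.683% of the listed cDNAs with SRSF3 and 2.86%, 3.23% and 1.44% with SRSF7. SRSF7 was higher than SRSF3 in all 3 fractions, and both proteins were lowest in cytoplasm. The locus chr7:67105899-67150421 on the minus strand, which holds the 2 even clusters above, had 14 persistent clusters that held 0.970%, 1.13% and 0.692% with SRSF3 and 0.754%, 1.74% and 1.33% with SRSF7.

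Some loci with several persistent clusters had only a small share in cytoplasm. The 7 clusters of chr1:162965305-162970711 on the plus strand held 0.401%, 0.516% and 0.0677% with SRSF3 and 0.722%, 1.37% and 0.0479% with SRSF7. The 7 clusters of chr19:8790307-8801161 on the plus strand held 0.370%, 0.337% and 0.0700% with SRSF3 and 0.936%, 1.20% and 0.0697% with SRSF7. In both loci the cytoplasm lists were the lowest for both proteins, and SRSF7 nucleoplasm was the highest list. The 5 clusters of chr13:21998973-22027944 on the plus strand ran the other way, holding 0.0310%, 0.118% and 0.324% with SRSF3 and 0.0531%, 0.0902% and 0.105% with SRSF7. There cytoplasm was the highest fraction for both proteins and chromatin the lowest. This locus shared the last place of the 10 with other loci of 5 persistent clusters, and those did not all run this way. The 5 clusters of chr15:28573406-28586167 on the plus strand held 0.178%, 0.166% and 0.0366% with SRSF3 and 0.213%, 0.356% and 0.0708% with SRSF7. The 8 clusters of chr7:82913996-82927006 on the minus strand were highest in nucleoplasm and held 0.0814%, 0.181% and 0.0152% with SRSF3 and 0.0137%, 0.0727% and 0.0248% with SRSF7. The 3 other loci of the 10 with the most persistent clusters held 6 or 7 each, chr13:23503782-23545390 with 7, and chr6:51408817-51420300 and chr9:78324617-78329438 with 6, all on the minus strand and each with at most 0.179% of any list.

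Set against the totals of the lists, SRSF3 had a larger share in cytoplasm than in chromatin at most persistent clusters compared, while SRSF7 leaned toward chromatin. The comparison asks at which sites a protein is found before and after export. A cluster was compared with at least 50 cDNAs in both lists together and at least 10 in each, and called when the whole interval of the ratio of shares lay beyond 2-fold. In SRSF3, 343 of 654 persistent clusters were called higher in cytoplasm and 65 higher in chromatin, with a median log2 ratio of chromatin to cytoplasm of -1.61. Over all 883 clusters compared, the persistent ones included, 52.8% were higher in cytoplasm and 9.51% higher in chromatin, and over the other 229 clusters alone 53.7% and 8.30%. In this contrast the SRSF3 shares of the persistent clusters, 52.4% and 9.94%, lay near both. In SRSF7, 145 of 467 were higher in chromatin (background 30.8%) and 63 higher in cytoplasm (background 12.1%), with a median of 0.32. The other 121 clusters gave 29.8% and 6.61%. The other clusters of any contrast lack a position in at least 1 list, which is tied to the rule, so differences from them are given with no test. The balance in SRSF3 depended on depth and on the total used. The minimum of 10 cDNAs is a larger share of the SRSF3 cytoplasm list than of the deeper SRSF3 chromatin list. Clusters low in cytoplasm are therefore left out more easily. With each list thinned to the smallest, 127 of 359 were higher in cytoplasm and 60 higher in chromatin, with a median of -0.93. With at least 200 cDNAs these were 124 and 65 of 325, with a median of -0.59. Set against the cDNAs of the persistent clusters only, which moves every SRSF3 log2 ratio by 1.18, 144 were higher in chromatin and 201 higher in cytoplasm. With positions counted in place of cDNAs the split was 1 and 248 in SRSF3, and 32 and 3 in SRSF7.

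Cluster by cluster the ratios of the proteins were correlated, though against the list totals the proteins leaned in different directions. Over the 394 clusters compared in both, the log2 ratios of chromatin to cytoplasm had a Pearson r of 0.62 and a Spearman rho of 0.63, across clusters, which share loci and lists and are no replicates. The same correlations were 0.49 and 0.46 over 430 clusters for chromatin to nucleoplasm and 0.64 and 0.66 over 435 for nucleoplasm to cytoplasm. Both proteins had a ratio of the same sign at 254 of 394, 261 of 430 and 329 of 435 clusters in these 3 contrasts. The background of these joint counts is close to the persistent clusters themselves, which make up 394 of the 412 clusters compared, so nothing is read from it. In chromatin against cytoplasm, 43 clusters were called higher in chromatin for both proteins (background 10.9%) and 56 higher in cytoplasm for both (background 13.6%). Another 23 were higher in cytoplasm for SRSF3 and higher in chromatin for SRSF7 (background 5.58%), and 0 showed the reverse (background 0%). Within the persistent clusters as the total, the 4 numbers were 70, 55, 7 and 4.

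**Figure D5:**
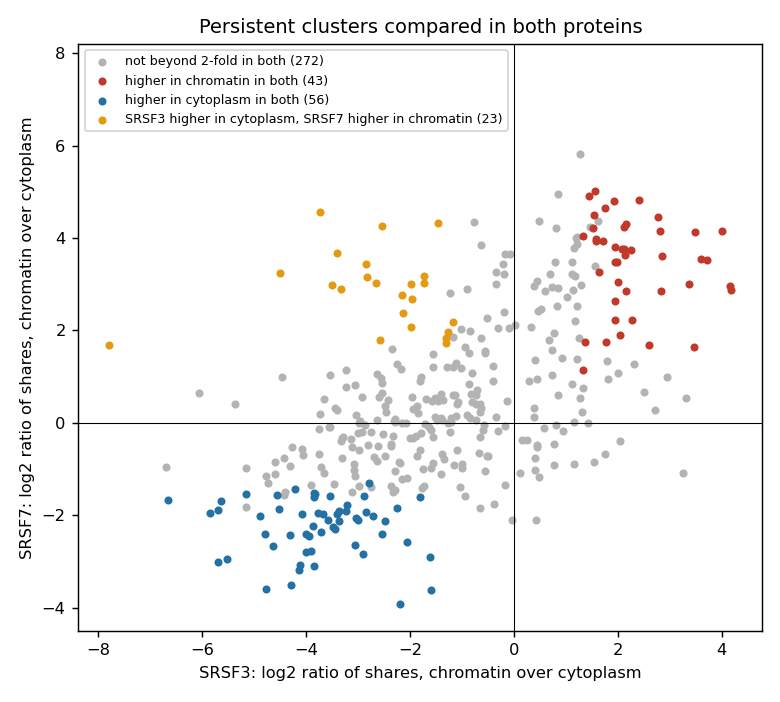
Log2 ratio of shares, chromatin over cytoplasm, of SRSF3 (horizontal axis) and SRSF7 (vertical axis) for the 394 persistent clusters compared in both proteins; each point is 1 cluster, coloured by its joint call. The 43 clusters higher in chromatin in both lie at upper right, the 56 higher in cytoplasm in both at lower left and the 23 of opposite direction at upper left, with 0 called in the lower right.

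Named here are the 5 clusters with the highest mean log2 ratio of chromatin to cytoplasm among those called in both proteins. Beside the 414-nt cluster of the chromosome 17 locus, they were between 49 and 76 nt wide. For that cluster the log2 ratio of chromatin to cytoplasm was 4.00 (3.79 to 4.22) in SRSF3 and 4.16 (4.04 to 4.28) in SRSF7. The 49-nt cluster chr9:120037958-120038006 on the plus strand had levels of 479, 155 and 42.8 CPM with SRSF3 and 2354, 109 and 133 with SRSF7, with ratios of 3.49 (2.64 to 4.49) and 4.14 (3.72 to 4.59). Chromatin was the highest list of each protein by a wide gap. The 76-nt cluster chr19:8799342-8799417, also on the plus strand, had 564, 139 and 42.8 CPM with SRSF3 and 1775, 196 and 155 with SRSF7, with 3.72 (2.87 to 4.73) and 3.52 (3.11 to 3.94). The 51-nt cluster chr2:26766768-26766818 and the 65-nt cluster chr11:62417998-62418062, both on the plus strand, had SRSF3 ratios of 2.41 (1.85 to 3.03) and 2.78 (2.24 to 3.37) and SRSF7 ratios of 4.82 (4.19 to 5.53) and 4.45 (3.96 to 4.98). In the chromosome 11 cluster nucleoplasm was the highest list of each protein. Its levels were 746, 1429 and 109 CPM with SRSF3 and 2137, 2516 and 98.0 with SRSF7. All 5 stayed beyond 2-fold in both proteins under each other total tried.

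At the other end, the mean of the log2 ratios of both proteins was lowest at the 145-nt cluster chr9:123438482-123438626 on the minus strand, though single ratios were lower at other clusters. Its levels were 94.4, 1036 and 4901 CPM with SRSF3 and 302, 4218 and 2445 with SRSF7. The log2 ratio of chromatin to cytoplasm was -5.70 (-5.94 to -5.46) in SRSF3 and -3.02 (-3.38 to -2.68) in SRSF7, and all 6 lists had their tallest position at 1 nucleotide. The 83-nt cluster chr13:22113017-22113099 on the minus strand had 65.6, 748 and 2999 CPM with SRSF3 and 185, 2673 and 1438 with SRSF7, with -5.51 (-5.81 to -5.23) and -2.96 (-3.42 to -2.52). In both, chromatin was the lowest list of each protein and SRSF7 was higher in nucleoplasm than in cytoplasm. The 146-nt cluster chr13:23673670-23673815 on the plus strand had 59.4, 1442 and 1626 CPM with SRSF3 and 52.3, 287 and 632 with SRSF7, with -4.78 (-5.10 to -4.46) and -3.59 (-4.52 to -2.79). The 136-nt cluster chr6:47731614-47731749 on the plus strand had 292, 4516 and 16827 CPM with SRSF3 and 459, 2559.8 and 1775 with SRSF7, with -5.85 (-5.98 to -5.72) and -1.95 (-2.25 to -1.66). The 5-nt cluster chrX:50940725-50940729 on the minus strand had 33, 85 and 480 cDNAs with SRSF3 and 31, 9 and 146 with SRSF7, with -6.64 (-7.20 to -6.14) and -1.67 (-2.28 to -1.10). Each of the 5 stayed beyond 2-fold in both proteins under the other totals tried.

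Among the 23 clusters of opposite direction, the ratios of the proteins were farthest apart at 3. The 5-nt cluster chr7:111785248-111785252 on the minus strand had 13, 70 and 415 cDNAs with SRSF3 and 59, 23 and 27 with SRSF7, with log2 ratios of chromatin to cytoplasm of -7.78 (-8.70 to -6.99) in SRSF3 and 1.69 (1.01 to 2.41) in SRSF7. The 60-nt cluster chr19:4078318-4078377 on the minus strand had 65, 11 and 125 cDNAs with SRSF3 and 547, 8 and 34 with SRSF7, with -3.73 (-4.18 to -3.28) and 4.57 (4.07 to 5.12). The cluster chr3:49771175-49771181 on the plus strand had 22, 22 and 72 cDNAs with SRSF3 and 64, 10 and 10 with SRSF7, with -4.49 (-5.25 to -3.79) and 3.24 (2.27 to 4.37). In each, SRSF3 cytoplasm was the highest SRSF3 list and SRSF7 chromatin the highest SRSF7 list. These clusters were named after their values were seen, and their number depends on the total: of the 23, 7 kept both calls with the persistent clusters as the total, where 4 others ran the reverse way.

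Nucleoplasm against cytoplasm gave no strong lean in SRSF3, with 79 of 607 clusters higher in nucleoplasm (background 11.6%) and 92 higher in cytoplasm (background 11.5%). In SRSF7, 142 of 557 were higher in nucleoplasm (background 22.7%) and 106 higher in cytoplasm (background 17.3%). Without the mitochondrial genome and the highest locus in the totals the splits were 59 and 127 in SRSF3 and 107 and 130 in SRSF7, and within the persistent clusters 97 and 75 in SRSF3. In opposite directions were 1 cluster higher in nucleoplasm for SRSF3 and in cytoplasm for SRSF7 (background 0.413%) and 1 the reverse (background 0.207%). Higher in nucleoplasm for both proteins were 37 clusters (background 7.85%), and higher in cytoplasm for both 38 (background 8.06%). Chromatin against nucleoplasm resembled chromatin against cytoplasm in SRSF3, with 31 of 786 higher in chromatin (background 3.92%) and 345 higher in nucleoplasm (background 37.7%). With each list thinned to the smallest, these SRSF3 numbers were 29 and 136 of 413. In SRSF7, 115 of 471 were higher in chromatin (background 21.3%) and 78 higher in nucleoplasm (background 14.8%). Both proteins were higher in chromatin at 15 of 430 clusters (background 3.21%) and higher in nucleoplasm at 51 (background 10%). In opposite directions were 1 cluster with SRSF3 higher in chromatin (background 0.189%) and 7 with SRSF7 higher there (background 1.32%). Within the persistent clusters as the total the single calls were 118 and 200 in SRSF3 and 87 and 130 in SRSF7, so the SRSF7 lean turned. The backgrounds contain the persistent clusters. Over the other clusters alone, 3.02% of 265 were higher in cytoplasm than in nucleoplasm in SRSF3, against 15.2% of the persistent ones. Higher in nucleoplasm than in chromatin in SRSF3 were 31.1% of 745 others, against 43.9%, and higher in chromatin than in nucleoplasm in SRSF7 were 15.2% of 237, against 24.4%. These gaps were not tested.

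Single clusters nevertheless differed widely between nucleoplasm and its neighbours. These were named after their values were seen, as the highest or lowest of a comparison. The 63-nt cluster chr17:35089208-35089270 on the minus strand had 474, 992 and 38.9 CPM with SRSF3 and 885, 2509 and 76.2 with SRSF7, with a log2 ratio of nucleoplasm to cytoplasm of 4.67 (3.77 to 5.75) in SRSF3. The 61-nt cluster chr11:62416934-62416994 on the plus strand had 568, 1036 and 3.89 CPM with SRSF3 and 1259.6, 4003 and 79.0 with SRSF7, with 5.66 (5.13 to 6.25) in SRSF7. Its SRSF3 cytoplasm level was 1 cDNA, too few for it to be compared there. For both clusters, nucleoplasm was the highest list of each protein and cytoplasm the lowest. The 61-nt cluster chr5:125884637-125884697 on the minus strand had 69.5, 63.4 and 1521 CPM with SRSF3 and 934, 94.5 and 471 with SRSF7, with -4.58 (-5.31 to -3.94) in SRSF3. Here nucleoplasm was the lowest list of SRSF3 and of SRSF7.

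The last comparison set SRSF3 against SRSF7 in each fraction. In chromatin 16 of 585 clusters were higher in SRSF3 (background 1.98%) and 241 higher in SRSF7 (background 31.5%), in nucleoplasm 120 and 84 of 617 (background 17.8% and 13.9%), and in cytoplasm 106 and 27 of 544 (background 18.4% and 6.88%). Within the persistent clusters as the total the splits were 77 and 64, 89 and 114, and 70 and 55. The lean toward SRSF7 in chromatin was therefore not present on that scale, which moves every log2 ratio there by 1.18. Those backgrounds include the persistent clusters. Of the other clusters, 19.6% of 475 were higher in SRSF7 in chromatin, against 41.2% of the persistent ones, and 12.2% of 197 were higher in SRSF7 in cytoplasm, against 4.96%. The gaps were not tested. With at least 3 cDNAs per position, the split was 55 and 112 in nucleoplasm and 50 and 40 in cytoplasm. With each list thinned to the smallest, it was 14 and 134 of 367 in chromatin.

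A single cluster was called higher in SRSF3 in all 3 fractions, of 328 compared (background 0.305%). That background holds no other clusters, since one compared in all 6 lists is persistent by the rule, and nothing is read from it. It spans 711 nt at chr17:29176644-29177354 on the plus strand and had 2133, 551 and 179 cDNAs with SRSF3 and 15, 25 and 16 with SRSF7. All 3 SRSF3 levels, 1206, 1746 and 696 CPM in chromatin, nucleoplasm and cytoplasm, lay far above the SRSF7 levels of 60.4, 90.9 and 43.6. The log2 ratios were 4.32 (3.60 to 5.16), 4.26 (3.69 to 4.90) and 4.00 (3.26 to 4.84), and the call held with each other total tried. On the minus strand of the same chromosome, the 1116-nt cluster chr17:80603663-80604778 stood at the opposite end and was named after its values were seen. It had 1106, 134 and 9 cDNAs with SRSF3 and 4854, 9403 and 5817 with SRSF7, so that each SRSF7 list was above each SRSF3 list. Its log2 ratio of SRSF3 to SRSF7 was -6.33 (-6.59 to -6.08) in nucleoplasm, the lowest of that comparison. It was not compared in cytoplasm, where SRSF3 had under 10 cDNAs.

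Higher in SRSF7 in all 3 fractions were 6 of 328 clusters (background 1.83%, again the same 328), of which the 5 with the lowest mean ratio are named. Of these 5, 4 lie in the chromosome 19 locus with 17 persistent clusters and the other is the 414-nt cluster on chromosome 17. The 219-nt cluster chr19:5800793-5801011 on the minus strand had 949, 247 and 393 CPM with SRSF3 and 3505, 3265 and 2407 with SRSF7, with log2 ratios of SRSF3 to SRSF7 of -1.89 (-2.00 to -1.77), -3.72 (-4.08 to -3.39) and -2.62 (-2.93 to -2.32) in chromatin, nucleoplasm and cytoplasm. The 154-nt cluster chr19:5796967-5797120 had 688, 323 and 89.5 CPM with SRSF3 and 2555, 1771 and 1279.6 with SRSF7, with -1.89 (-2.03 to -1.75), -2.45 (-2.78 to -2.14) and -3.84 (-4.51 to -3.24). In both clusters each SRSF7 list was above each SRSF3 list. The 70-nt and 47-nt clusters chr19:5800572-5800641 and chr19:5799840-5799886 had nucleoplasm ratios of -3.11 (-3.51 to -2.74) and -2.24 (-2.58 to -1.90). Not all of the locus behaved alike. The 101-nt cluster chr19:5796808-5796908 was among the 5 most even, with 287, 282 and 210.0 CPM with SRSF3 and 575, 345 and 299 with SRSF7 and a nucleoplasm ratio of -0.29 (-0.73 to 0.14). Within the persistent clusters as the total, 0 of the 6 were called in all 3 fractions, while all 5 named ones kept it in nucleoplasm and cytoplasm.

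Persistent clusters in short loci differed from the rest between fractions, in a grouping made after the values were seen. Loci under 1 kb held 433 persistent clusters, loci of 1 to 10 kb held 430 and longer loci 431. The median SRSF3 level was 18.7, 79.2 and 109 CPM in loci under 1 kb, 21.5, 79.2 and 46.7 in loci of 1 to 10 kb and 40.7, 105 and 54.5 in longer ones. Cytoplasm was thus the highest fraction in the shortest loci, and nucleoplasm in the other classes. For SRSF7 the medians were 56.3, 54.5 and 49.0 CPM, then 40.2, 65.5 and 32.7, then 44.3, 80.0 and 57.2. In SRSF3, 158 of 236 clusters in the shortest loci were higher in cytoplasm than in chromatin and 1 was higher in chromatin, with a median log2 ratio of -2.17. In loci of 1 to 10 kb these numbers were 88 and 38 of 200, with a median of -1.20, and in longer loci 97 and 26 of 218, with -1.34, so the ratio did not follow span in order. In this SRSF3 contrast, clusters that were not persistent had similar shares. Of 50 such clusters in the shortest loci 74.0% were higher in cytoplasm, against 66.9% of the persistent ones, and in the longest loci 47.2% of 123 against 44.5%. For the SRSF7 ratio of nucleoplasm to cytoplasm, the shortest loci gave 30 persistent clusters above 2-fold and 59 below, of 177, loci of 1 to 10 kb 53 and 23 of 173, and the longest 59 and 24 of 207. Of the clusters that were not persistent, 19 could be compared there in the shortest loci, with 3 above and 3 below. In loci of 1 to 10 kb, 22% of 50 such clusters were above and 2% below, against 30.6% and 13.3% of the persistent ones. In the longest loci, 15.9% of 208 were above and 16.3% below, against 28.5% and 11.6%. There they showed no lean, and these gaps were not tested. A locus is joined over all 6 lists, of which SRSF3 chromatin lists the most positions, and its part in the span was not tested.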

How the data were processed

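Each of the 6 deposited lists gives single nucleotides with a signed whole number, read here as the cDNA count at that crosslink site and its sign as the strand. No header states the meaning of the sign. Per the file headers, the authors kept positions at a false discovery rate under 0.05 against 100 permutations with a neighbourhood of 15 nt, on build mm9 with pooled replicates (4 for SRSF3, 3 for SRSF7, 21 samples in all). The aligner, the peak caller's version and the handling of duplicates were not given in the sources used here. Counts were used as deposited, with no sign of scaling to depth in them.

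Positions were joined at gaps of up to 30 nt into clusters and up to 10000 nt into loci with Python 3.11.15, numpy 2.4.6, pandas 2.3.3 and scipy 1.17.1, and drawn with matplotlib 3.10.9. Coordinates are 1-based. Shares have Clopper-Pearson intervals and ratios of shares conditional exact binomial ones. A ratio was computed with at least 50 cDNAs in both lists together and at least 10 in each, and called when its whole 95% interval lay beyond 2-fold. The procedure was tested on simulated data, drawn with counting error only. That is the error the intervals assume, so spread between replicates was not part of the test. PCR copies and the peak caller's selection lie outside these intervals.

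Clusters are named by rule. They are the 10 with the highest lowest share, up to 5 at each end of the SRSF3 to SRSF7 ratio among those beyond 2-fold one way in all 3 fractions, 5 at each end of the chromatin to cytoplasm ratio among those beyond 2-fold one way in both proteins, the 5 most even with at least 50 cDNAs in every list, the 3 widest and the 10 loci with the most persistent clusters. The clusters and all rules were chosen with earlier results of these data known. Added after the values were seen were the joint and opposite calls, the locus spans, the 5′ side of tallest positions, the shared nucleotides, the ratios between the clusters on chromosomes 3, 5 and 11, the breakdown of the chromosome 17 locus and the extremes of each comparison. Alternatives changed the joining gap, the lowest cDNA number per position, the totals, the minimum count, the depth and the tie rule.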

Additional observations from a re-analysis of the deposited data

Results flagged for a closer look

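At 23 persistent clusters the share in chromatin against cytoplasm was beyond 2-fold in opposite directions for the 2 proteins, each lower in chromatin for SRSF3 and higher for SRSF7. With the persistent clusters as the total, 7 ran this way and 4 the reverse. Opposite directions were also called at 8 clusters for chromatin against nucleoplasm, 7 with SRSF7 higher in chromatin and 1 with SRSF3 higher, which became 1 and 12 with that total. For nucleoplasm against cytoplasm there were 2, 1 in each direction. They stand out because the intervals of the proteins lie on opposite sides of equal shares, and the difference between the proteins itself was not tested.

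In nucleoplasm against cytoplasm, the 2 were the 172-nt cluster of the chromosome 17 locus, with log2 ratios of 2.94 in SRSF3 and -1.41 in SRSF7, and chr4:131825943-131826065 on the minus strand, with -1.81 and 1.58. In chromatin against nucleoplasm, the cluster chr19:5798845-5798979 on the minus strand had 2.49 in SRSF3 and -1.87 in SRSF7, while the remaining 7 ran the other way.

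Outside the clusters described, 12 mitochondrial clusters had a position in all 6 lists. Their part of the cDNAs was 0.173% in SRSF3 chromatin, 6.71% in SRSF3 nucleoplasm and 10.6% in SRSF3 cytoplasm. In SRSF7 it was 0.302%, 1.29% and 5.67% in the same order of fractions. No sample without a tagged protein was analysed here, so no background can be set beside these values.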

How the results depend on the processing

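Counting error, the depth of the shallowest list and the total that a share is set against limit these results. The number of persistent clusters followed the rule closely, since it fell to 793 when positions needed 2 cDNAs and to 498 when they needed 3, but was between 1162 and 1297 with other joining gaps or with each list thinned to the smallest. Of the 1294, 93.2% overlapped a cluster found with a gap of 10 nt, 89.0% one found after thinning and 37.8% one found with at least 3 cDNAs. No paired analysis was possible because the submitters pooled the replicates into 1 list per group, and no replicate could be left out for the same reason. Values that moved past their counting interval, or past 1.5 times for a count, follow by setting with the rest of their series. This covers the shares, the calls, the joint calls and the distances within 5 nt. Of the values for tallest positions at the same nucleotide, 28 moved and 8 did not, and they are not listed by setting. Of those for opposite directions, 11 moved and 7 did not, and they are given above only in part. The cause was not tested where a setting is not a change of total or of the clusters counted.

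The percent of cDNAs in persistent clusters, in SRSF3 chromatin, nucleoplasm and cytoplasm and then the same in SRSF7, was 44.2, 61.3, 64.8, 72.3, 64.4 and 65.8 with positions of at least 3 cDNAs. It was 21.3, 50.4, 64.0, 54.7, 42.6 and 40.2 with mitochondrial cDNAs and the highest locus left out. It was 24.7, 50.2, 59.6, 58.4, 43.2 and 44.9 with positions joined at 10 nt. It was 29.4, 55.7, 62.1, 63.8, 47.7 and 48.5 with positions joined at 60 nt.

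The clusters beyond 2-fold, higher and lower in the first list, are given in the order SRSF3 chromatin to cytoplasm, SRSF7 chromatin to cytoplasm, SRSF3 chromatin to nucleoplasm, SRSF7 chromatin to nucleoplasm, SRSF3 nucleoplasm to cytoplasm, SRSF7 nucleoplasm to cytoplasm, and SRSF3 to SRSF7 in chromatin, nucleoplasm and cytoplasm. They were 35 and 403, 140 and 68, 23 and 389, 122 and 57, 59 and 127, 107 and 130, 12 and 265, 158 and 56, 146 and 16 with mitochondrial cDNAs and the highest locus left out of the totals. They were 144 and 201, 131 and 82, 118 and 200, 87 and 130, 97 and 75, 148 and 101, 77 and 64, 89 and 114, 70 and 55 with the persistent clusters as the total. They were 65 and 124, 89 and 36, 31 and 126, 72 and 38, 39 and 37, 69 and 61, 16 and 140, 55 and 57, 41 and 14 with at least 200 cDNAs. They were 90 and 185, 105 and 54, 79 and 179, 78 and 85, 75 and 69, 118 and 73, 20 and 118, 55 and 112, 50 and 40 with positions of at least 3 cDNAs. They were 1 and 248, 32 and 3, 0 and 306, 23 and 2, 5 and 6, 14 and 7, 0 and 235, 33 and 5, 37 and 1 with positions counted. They were 60 and 127, 116 and 59, 29 and 136, 111 and 80, 72 and 83, 114 and 95, 14 and 134, 112 and 81, 74 and 26 with each list thinned to the smallest.

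The joint calls, a result chosen after seeing the data, are given as higher in chromatin than in cytoplasm in both proteins, lower in both, lower in SRSF3 with higher in SRSF7, higher in nucleoplasm than in cytoplasm in both, lower in both, SRSF3 higher in all 3 fractions and SRSF7 higher in all 3. The counts were 23, 60, 25, 26, 60, 2 and 4 with mitochondrial cDNAs and the highest locus left out of the totals. Those counts were 70, 55, 7, 45, 28, 2 and 2 with the persistent clusters as the total. Those counts were 38, 27, 8, 15, 15, 0 and 6 with at least 200 cDNAs. Those counts were 49, 42, 6, 33, 23, 1 and 4 with positions of at least 3 cDNAs. Those counts were 1, 3, 13, 2, 0, 0 and 0 with positions counted. Those counts were 39, 28, 8, 30, 33, 1 and 6 with each list thinned to the smallest.

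The percent of clusters with tallest positions within 5 nt, in the order of the comparisons above, was 62.8, 61.4, 61.1, 54.5, 67.8, 61.0, 65.1, 55.1 and 63.9 with at least 50 cDNAs in each list. This percent was 91.7, 93.0, 95.5, 92.9, 94.4, 95.7, 91.7, 93.9 and 94.9 in clusters up to 30 nt. This percent was 61.3, 57.7, 61.7, 58.5, 62.9, 60.5, 59.6, 56.0 and 56.8 in clusters over 30 nt. This percent was 61.0, 56.0, 60.5, 54.5, 61.7, 57.4, 58.4, 53.5 and 56.3 with the 5′-most of tied positions.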
